A study of Homo sapiens with 8 samples.

Results

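The SMAD genes encode the proteins that carry signals of the TGF-β family from receptors at the cell surface to the nucleus, and their 8 human members (SMAD1 to SMAD7 and SMAD9) were examined for binding of HoxC5 and Pbx4 in PC-3 cells, an established human prostate cancer line. HoxC5 is a homeobox transcription factor and Pbx4 is a homeobox protein of the family of Hox cofactors. ChIP-Seq peaks were assigned to a SMAD gene when the summit lay in the gene body or at most 100 kb from any annotated transcription start site (TSS) of that gene, in hg19 coordinates. By this rule the 8 genes held 252 of the 223511 peaks in the 4 deposited lists, of which 4 were endogenous HoxC5 peaks of replicate 1 (of 2525), 0 were of replicate 2 (of 170), 89 were overexpressed HoxC5 peaks (of 67196) and 159 were overexpressed Pbx4 peaks (of 153620).

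The endogenous libraries came from control PC-3 cells with an antibody against HoxC5, and the same antibody was used on PC-3 cells overexpressing HoxC5, where it can recover endogenous and introduced protein alike. The Pbx4 library came from PC-3 cells overexpressing Pbx4, with an antibody against Pbx4. Each overexpressing condition is 1 library and the endogenous condition is 2, and nothing in the labels says whether these came from separate cultures. The 4 input libraries were not analysed here, and the exact read total of each library is not given in the sources used here. All folds below are the enrichments over local background that the authors' peak caller gave, and they were compared only within a list. No test was made across genes or peaks, since peaks of a gene share its locus. Where the same share over all genes or all peaks was computed, it is given beside the value.

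Receptor-regulated SMADs are phosphorylated by activated type I receptors. SMAD2 and SMAD3 act downstream of TGF-β and activin receptors, and SMAD1, SMAD5 and SMAD9 downstream of BMP receptors. SMAD4, the common SMAD, joins either branch in complexes that bind DNA, and SMAD6 and SMAD7 are the inhibitory SMADs, which act as feedback brakes on the receptors. SMAD proteins bind short DNA elements, among them the palindromic SMAD box GTCTAGAC, and often act beside AP-1, which binds TGACTCA.

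The genes lie on 5 chromosomes. Of the BMP branch, SMAD1 is on chromosome 4 (146402346 to 146480328, plus strand), SMAD5 on chromosome 5 (135468534 to 135524435, plus strand) and SMAD9 on chromosome 13 (37418968 to 37495024, minus strand). SMAD3 (67356101 to 67487511) and SMAD6 (66994574 to 67075187) are both on the plus strand of chromosome 15. Chromosome 18 holds SMAD2 (45335328 to 45457517, minus strand), SMAD7 (46446223 to 46477335, minus strand) and SMAD4 (48554898 to 48611415, plus strand). The windows ranged from 209.462 kb at SMAD6 to 322.9 kb at SMAD3, beside a median of 210.604 kb over all protein-coding genes, and so densities are given per 100 kb of window.

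The sites that the results turn on are shown first as the GRCh37 (hg19) plus strand, in lower case. Capitals mark any of 8 words sought on either strand, which were TGACTCA (AP-1), TGATTGAT and TGATTAAT (Hox-Pbx), TAATTA and TAATGA (Hox), TGACAG (Meis), GTCTAGAC (SMAD box) and CCCCGCCC (GC box). Bases of untranslated exons were left out, so that the endogenous peak at SMAD2, which lies in such an exon, is not printed, and the sites at SMAD3 and at the start of SMAD6 end 1 base before the exon. The first 3 are the endogenous HoxC5 sites at SMAD3 (chr15:67417962-67418053), upstream of SMAD9 (chr13:37540036-37540188) and in SMAD6 (chr15:67036563-67036763, centred on the summit). The next is the overexpressed HoxC5 site of highest fold in SMAD3 (chr15:67399453-67399653), where TAATGA and the AP-1 word on the other strand overlap, and the last 2 are the sites with a SMAD box, at the start of SMAD6 (chr15:66994463-66994573) and upstream of SMAD7 (chr18:46478521-46478737).
SMAD3 endogenous: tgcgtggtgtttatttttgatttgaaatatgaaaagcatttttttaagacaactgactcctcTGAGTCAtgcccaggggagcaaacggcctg
SMAD9 endogenous: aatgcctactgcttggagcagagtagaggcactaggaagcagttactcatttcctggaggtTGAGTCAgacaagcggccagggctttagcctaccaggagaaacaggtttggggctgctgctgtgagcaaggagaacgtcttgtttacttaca
SMAD6 endogenous: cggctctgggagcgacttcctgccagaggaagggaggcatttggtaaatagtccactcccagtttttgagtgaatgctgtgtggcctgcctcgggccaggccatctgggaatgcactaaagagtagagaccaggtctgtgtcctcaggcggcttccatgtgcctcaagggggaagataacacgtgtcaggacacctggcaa
SMAD3 strongest: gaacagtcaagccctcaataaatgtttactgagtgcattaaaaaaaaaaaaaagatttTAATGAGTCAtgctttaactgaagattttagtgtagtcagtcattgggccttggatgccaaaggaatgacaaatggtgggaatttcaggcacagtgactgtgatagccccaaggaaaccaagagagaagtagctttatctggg
SMAD6 start: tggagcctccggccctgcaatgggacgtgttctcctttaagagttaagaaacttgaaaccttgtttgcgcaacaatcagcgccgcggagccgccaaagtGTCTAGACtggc
SMAD7 upstream: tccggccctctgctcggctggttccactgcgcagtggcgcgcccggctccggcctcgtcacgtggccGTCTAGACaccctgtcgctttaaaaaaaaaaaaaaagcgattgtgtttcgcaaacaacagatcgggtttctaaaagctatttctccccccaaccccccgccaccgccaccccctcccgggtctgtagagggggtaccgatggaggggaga

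Endogenous HoxC5 replicate 1 had 1 peak at each of 4 SMAD genes, SMAD2, SMAD3, SMAD6 and SMAD9, and 0 at the other 4, and replicate 2 had 0 at any. Over all 20163 protein-coding genes, 26.3% had a replicate 1 peak and 2.36% a replicate 2 peak by the same rule. Their folds were 5.44 at SMAD9, 5.30 at SMAD2, 5.17 at SMAD6 and 4.40 at SMAD3, against a median of 4.98 over the list, so that 3 of the 4 were above it, and they stood between 37.9 and 67.2% of the way down it by fold. Their −log10 q lay between 3.39 and 4.79, and with a −log10 q of at least 5 required none of the 4 genes kept its peak. Genome-wide, 135 of the 2525 replicate 1 peaks (5.35%) overlapped a replicate 2 peak. The replicate 2 list held only 170 peaks, which limits how large this share could be.

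The peaks at the receptor-regulated SMAD2 and SMAD3 lay at transcript starts. At SMAD2 the summit was 36 bp downstream of a TSS on chromosome 18 (45456809 to 45456961) in an untranslated exon, and at SMAD3 it was 7 bp upstream of an internal TSS on chromosome 15 (67417962 to 67418197), 61.9 kb into the gene. Of all protein-coding genes, 3.38% had a replicate 1 summit within 1 kb of a TSS, and 2 of the 8 SMAD genes did. SMAD2 had 12 annotated starts and SMAD3 had 18, and the share was not adjusted for the number of starts. The SMAD6 peak (67036473 to 67036785 on chromosome 15) lay in an intron, 32.6 kb downstream of the nearest TSS of the gene. The SMAD9 peak (37540036 to 37540188 on chromosome 13) lay 45.1 kb upstream of SMAD9 and inside ALG5, an enzyme gene of protein glycosylation, whose TSS was nearer, at 2079 bp.

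Of these 4 endogenous sites, 3 overlapped an overexpressed HoxC5 peak, beside 76.4% of all replicate 1 peaks, and 3 overlapped a Pbx4 peak, beside 70.8%. The SMAD3 site was in all 3 of these lists, with a fold of 12.3 for overexpressed HoxC5 and 11.0 for Pbx4 and with summits 51 and 48 bp from the endogenous summit. The SMAD6 site was also in all 3, with folds of 7.72 and 4.18. The SMAD2 site was shared with overexpressed HoxC5 only, with summits 194 bp apart. The fold there was 3.19, which stood 97.6% of the way down that list, and the nearest Pbx4 summit was 15.1 kb away. The SMAD9 site was shared with Pbx4 only, at a fold of 15.7, and the nearest overexpressed HoxC5 summit was 33.5 kb away. The AP-1 word was within 50 bp of the summit at SMAD3 and SMAD9, as the capitals above show, and neither Hox-Pbx word was near any of the 4 summits. The Meis word was also near the SMAD3 summit, in the exon that is not printed, and the GC box near the SMAD2 summit.

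In the overexpressing cells all 8 SMAD genes had peaks of both proteins, as did 92.8% of all protein-coding genes for HoxC5 and 96.1% for Pbx4, so that the presence of a peak set no SMAD gene apart. The numbers differed widely. SMAD3 had 28 HoxC5 peaks in a window of 322.9 kb, or 8.67 per 100 kb, and 5.51% of protein-coding genes had a higher density. It also had 54 Pbx4 peaks, 16.7 per 100 kb, and 2.03% of genes had a higher density. SMAD4 had 2 HoxC5 peaks, or 0.804 per 100 kb, and 86.6% of genes had a higher density. For Pbx4 it had 8 peaks, 3.22 per 100 kb, a density that 77.2% of genes exceeded. The median over all protein-coding genes was 3.28 HoxC5 and 6.04 Pbx4 peaks per 100 kb.

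The other receptor-regulated genes were closer to that median, although SMAD1 was above the upper quartile of all genes for both proteins, as was the inhibitory SMAD6. SMAD1 had 14 HoxC5 and 26 Pbx4 peaks (5.28 and 9.80 per 100 kb). SMAD5 had 8 and 11 (3.31 and 4.55 per 100 kb), SMAD2 had 8 and 10 (3.28 and 4.09 per 100 kb) and SMAD9 had 5 and 14 (2.07 and 5.81 per 100 kb). Of the inhibitory genes, SMAD6 had 13 HoxC5 and 23 Pbx4 peaks (6.21 and 11.0 per 100 kb), and SMAD7 had 11 and 13 (4.98 and 5.89 per 100 kb). SMAD3 had the most peaks of both proteins under each alternative that was tried. The lowest place depended on the rule. With a window of 200 kb SMAD4 had 8 HoxC5 and 19 Pbx4 peaks, and the fewest were then the 6 HoxC5 peaks of SMAD9 and the 11 Pbx4 peaks of SMAD2.

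By class, the 5 receptor-regulated genes together had 63 HoxC5 peaks (4.79 per 100 kb of window), the common SMAD4 had 2 (0.804 per 100 kb) and the 2 inhibitory genes had 24 (5.58 per 100 kb). For Pbx4 the densities were 8.74, 3.22 and 8.37 per 100 kb. Without SMAD3, the receptor-regulated genes had 3.53 HoxC5 and 6.15 Pbx4 peaks per 100 kb, below the inhibitory genes in both lists. For HoxC5 the inhibitory genes were denser with or without SMAD3, and for Pbx4 the order of the classes turned when SMAD3 was left out. The inhibitory class has only 2 genes, of which SMAD6 was the denser. SMAD7 on its own had 4.98 HoxC5 and 5.89 Pbx4 peaks per 100 kb. Its Pbx4 density was below that of the receptor-regulated genes without SMAD3, and so the turned order rested on SMAD6. Within the receptor-regulated class, SMAD2 and SMAD3 together had 6.35 HoxC5 peaks per 100 kb and the 3 genes of the BMP branch had 3.61. SMAD2 on its own had 3.28.

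The positions of the summits are given as counts, with no such counts over all genes to set them against. Of the 89 HoxC5 summits, 41 (46.1%) were in a SMAD gene body, which makes up 31.7% of the windows, and these comprised 33 in introns, 5 in untranslated exons, 1 in a coding exon and 2 in exons of noncoding transcripts. A further 34 were upstream and 14 downstream of the gene. Of the 159 Pbx4 summits, 67 (42.1%) were in the gene body, 60 of them in introns and 0 in coding exons. The excess over the window share was not common to all genes. Receptor-regulated genes without SMAD3 had 34.3% of HoxC5 and 27.9% of Pbx4 summits in bodies, beside 33.5% of their windows. The inhibitory genes had 45.8 and 47.2%, beside 26.0%, and SMAD4 had 0 of 2 and 2 of 8, beside 22.7%. At SMAD3, 18 of 28 HoxC5 and 31 of 54 Pbx4 summits were in the body, and 21 Pbx4 summits followed each other at gaps of at most 10 kb over 58.5 kb of the gene. The longest such row of HoxC5 summits there was 9 over 29.4 kb. At SMAD6, 9 Pbx4 summits lay in a row of 26.0 kb inside the gene, and the other genes had rows of 3 to 5 Pbx4 summits.

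At 5 of the 8 genes, SMAD1, SMAD2, SMAD3, SMAD6 and SMAD7, a HoxC5 summit was within 1 kb of a TSS of the gene, beside 54.9% of all protein-coding genes. Pbx4 had such a summit at SMAD1, SMAD3, SMAD5, SMAD6 and SMAD7, beside 41.9% of all. Neither protein had one at SMAD4, although it had the most annotated starts of the 8 genes (20), or at SMAD9, which had the fewest (3). The closest were at SMAD2 for HoxC5, 7 bp from a TSS, and at SMAD7 for Pbx4, 2 bp from a TSS. That SMAD2 peak, the only HoxC5 peak of the gene within 1 kb, had a fold of 3.19 and stood 97.6% of the way down the list. The SMAD7 site, at 46468977 to 46469281 on chromosome 18, lay at an internal start 8.26 kb into the gene. It had a HoxC5 peak and a Pbx4 peak, in separate libraries, with folds of 11.6 and 8.22. At the 5′ end of SMAD6 a HoxC5 peak of 11.1-fold had its summit 37 bp downstream of the TSS, and a Pbx4 peak of 4.68-fold had its summit 47 bp upstream. At SMAD3 the HoxC5 summits near a start were 5, among them 44 bp (fold 12.3) and 46 bp (fold 9.06) from 2 internal starts that lie within 3 kb of each other.

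The common SMAD4 had no HoxC5 summit within 59.9 kb of a TSS. Its 2 HoxC5 peaks, at 48494437 to 48494570 and 48494840 to 48495007 on chromosome 18, each had a fold of 5.67, below the list median of 6.17, and lay 132 and 533 bp from the TSS of ELAC1, the neighbouring tRNA-processing gene. A read-through gene of the annotation, ENSG00000267699, spans these positions and runs on towards SMAD4. Of the 8 Pbx4 peaks, 3 were nearer to a TSS of SMAD4 than to that of any other protein-coding gene, with folds of 5.19, 5.45 and 6.55. The strongest, at 12.1-fold, lay inside ELAC1, 55.1 kb upstream of SMAD4.

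The strongest HoxC5 peaks near several SMAD genes were likewise closer to another gene. At SMAD5 the HoxC5 peak of highest fold, 22.3, was the highest of the 89 and ranked 276 in its list. It lay inside TGFBI, a gene named for its induction by TGF-β, 95.7 kb upstream of SMAD5 and 8023 bp from a TSS of TGFBI. A second HoxC5 peak in TGFBI had a fold of 20.8, and the Pbx4 peak over it, 76 bp from a TSS of TGFBI, had a fold of 17.0. The peaks inside SMAD5 itself were weaker, with 1 HoxC5 peak of 4.78-fold and 2 Pbx4 peaks of 6.92 and 6.55-fold. Of the HoxC5 peaks assigned to SMAD5, 2 of 8 had a TSS of SMAD5 as their nearest, and at SMAD9 1 of 5 did. At SMAD9 the strongest HoxC5 peak, 13.7-fold, was 126 bp from the TSS of EXOSC8, a subunit of the RNA exosome. At SMAD1 the strongest of both proteins, 13.1-fold each, were downstream of the gene inside MMAA, a gene of cobalamin metabolism. For SMAD2 and SMAD6 all HoxC5 peaks, and for SMAD3 27 of 28, had a TSS of the SMAD gene as the nearest, and in total 67 of 89 HoxC5 and 118 of 159 Pbx4 peaks did.

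Other peaks that were strongest or nearest to a TSS lay in or upstream of the SMAD gene itself. At SMAD9 the highest Pbx4 fold was 16.4, in an intron 8832 bp from the nearest TSS (37444931 to 37445471 on chromosome 13), with no HoxC5 peak over it. It was also the Pbx4 peak nearest to a TSS of that gene, and the nearest HoxC5 peak, of 5.80-fold, was 21.4 kb from one. At SMAD2 the strongest peaks lay upstream, at 22.4 kb for HoxC5 (fold 8.74, not shared) and at 14.6 kb for Pbx4 (fold 13.5, shared). The Pbx4 peak nearest to a TSS of SMAD2 was in an intron at 2811 bp, with a fold of 7.65. At SMAD6 the strongest were in introns, 29.3 kb from a TSS for HoxC5 (fold 12.6) and 54.3 kb for Pbx4 (fold 14.9), and each was shared with the other protein. At SMAD1 the peaks nearest to a TSS were at different starts, 117 bp from an internal one for HoxC5 (fold 9.31, shared with Pbx4) and 71 bp from one near the 5′ end for Pbx4 (fold 6.36, not shared).

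Merged over the libraries, the peaks made 191 sites at the 8 genes. Peaks of both overexpressed proteins were called at 56 of them, HoxC5 without Pbx4 at 32 and Pbx4 without HoxC5 at 103. A protein counted as lacking at a site had no called peak there. The HoxC5 list ended at a q of 0.00997 and the Pbx4 list at 0.0490, and this split was not repeated at a common limit. Of the HoxC5 peaks, 57 of 89 overlapped a Pbx4 peak by at least 1 bp (64.0%, 95% Clopper-Pearson interval 53.2 to 73.9%, counting error only), beside 67.7% of all HoxC5 peaks. Of the Pbx4 peaks, 56 of 159 overlapped a HoxC5 peak (35.2%, interval 27.8 to 43.2%), beside 28.5% of all. Each interval holds the share over all peaks. Where the proteins shared a site, their summits were a median of 53 bp apart over 57 HoxC5 peaks, and 50 bp over all 45474 shared HoxC5 peaks.

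Sharing varied among the genes. At SMAD3, 23 of the 28 HoxC5 peaks (82.1%) overlapped a Pbx4 peak. It was 9 of 14 at SMAD1, 5 of 8 at SMAD5, 8 of 13 at SMAD6, 4 of 8 at SMAD2, 5 of 11 at SMAD7, 2 of 5 at SMAD9 and 1 of 2 at SMAD4. By class the share was 68.3% of 63 peaks for the receptor-regulated genes (interval 55.3 to 79.4%) and 54.2% of 24 for the inhibitory genes (interval 32.8 to 74.4%), so that the intervals overlapped. Without SMAD3 the receptor-regulated share was 57.1% of 35 peaks (interval 39.4 to 73.7%). Seen from Pbx4, the shares were 36.5 and 36.1%, and 1 of 8 peaks (12.5%) at SMAD4.

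**Figure D1:**
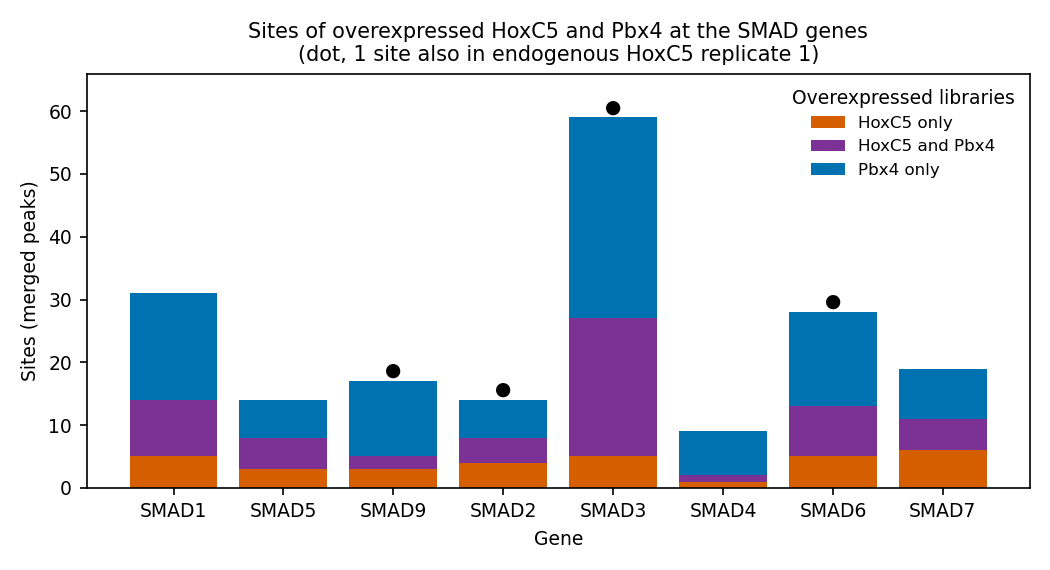
Number of sites at each SMAD gene, merged over the libraries, with overexpressed HoxC5 only, both proteins or overexpressed Pbx4 only, and a dot for each site that was also a peak of endogenous HoxC5 replicate 1. SMAD3 has 22 sites of both proteins, and SMAD9 has 2 beside 12 of Pbx4 only. A site of only 1 protein had no called peak of the other, and the lists ended at different limits of q.

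Shared peaks had higher folds. The HoxC5 peaks that overlapped Pbx4 had a median fold of 8.08 and the others of 5.77, and over the whole list these medians were 6.61 and 5.63. For Pbx4 the medians were 8.45 for shared and 5.72 for other peaks, and 8.23 and 5.89 over the whole list. Shared peaks at the SMAD genes were also wider, with a median of 272 against 180.5 bp for HoxC5 and 425.5 against 281 bp for Pbx4, and the part of width in the overlap was not tested. At SMAD3, 21 of 28 HoxC5 peaks were at or above the median of the list, as were 6 of 8 at SMAD2. Of the SMAD3 Pbx4 peaks 27 of 54 were, beside 9 of 11 at SMAD5, where only 3 had a TSS of SMAD5 as their nearest. At SMAD7 it was 4 of 11 HoxC5 and 4 of 13 Pbx4 peaks, and at SMAD4 0 of 2 and 2 of 8. The folds of the HoxC5 peaks at SMAD3 ranged from 3.62 to 16.4, with a median of 8.99, and the highest was in the intron site printed above, which was shared with Pbx4. The highest Pbx4 fold at SMAD3, 18.0, lay 35.7 kb upstream of the gene (67320145 to 67320570 on chromosome 15) and was shared with a HoxC5 peak of 7.34-fold. At SMAD7 the highest folds were 12.3 for HoxC5, inside the neighbouring translation factor gene CTIF, and 8.49 for Pbx4, 46.3 kb upstream.

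Of the 8 words sought within 50 bp of the summits, most were near their share over all peaks of the list. The AP-1 word TGACTCA was at 13 of 89 HoxC5 summits (14.6%, interval 8.01 to 23.7%), beside 20.5% of all HoxC5 summits, and 7 of the 13 were at SMAD3. It was at 24 of 159 Pbx4 summits (15.1%, interval 9.92 to 21.6%), beside 18.5% of all, and 9 of these were at SMAD3. The Hox word TAATGA was at 14 HoxC5 summits (15.7%, interval 8.88 to 25.0%), beside 8.41% of all, which lies just below the interval, and at 8 Pbx4 summits (5.03%), beside 7.61%. No test was made over the words. The intervals count each peak as independent, although peaks of a gene share its locus, and 8 words were sought in each list. The Meis word TGACAG was at 9 HoxC5 (10.1%) and 13 Pbx4 summits (8.18%), beside 7.88 and 10.4% of all. The Hox-Pbx words TGATTGAT and TGATTAAT were each at 1 of the 89 HoxC5 summits, beside 0.796 and 0.807% of all. TGATTGAT was at 1 Pbx4 summit (0.629%), beside 0.469% of all, and TGATTAAT was at 0 of 159, where the interval reached 2.29%, beside 0.691% of all. The Hox word TAATTA was at 1 of the 89 HoxC5 and 2 of the 159 Pbx4 summits, beside 2.01 and 1.96% of all. The GC box was at 3 HoxC5 summits (3.37%), beside 2.75% of all, and at 2 Pbx4 summits (1.26%, interval 0.153 to 4.47%), beside 0.505% of all.

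The SMAD box GTCTAGAC was near 2 of the 89 HoxC5 summits (2.25%, interval 0.273 to 7.88%), both at the inhibitory genes, and the SMAD7 peak was singled out after this was seen. Over all HoxC5 summits it was near 34 of 67172 (0.0506%). At both genes the word started 49 bp from the HoxC5 summit, near the limit of 50 bp, and that limit was not varied. It was near 1 of the 159 Pbx4 summits (0.629%), beside 0.0645% of all. At SMAD6 it started 12 bp upstream of the TSS, at 66994562 on chromosome 15, inside the HoxC5 peak of 11.1-fold and the Pbx4 peak of 4.68-fold. At SMAD7 it started at 46478588 on chromosome 18, 1253 bp upstream of the TSS of the gene, inside a HoxC5 peak of 6.84-fold that had no Pbx4 peak over it. No summit of the receptor-regulated or common SMAD genes had the word within 50 bp in either overexpressed list. A word in the reference is a description of the sequence, and SMAD binding was not measured.

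A list of 33 other genes of the pathway was looked at in the same way. All 11 type I and II receptors, all 12 partners and regulators of SMADs and all 10 SMAD target genes had a peak of each overexpressed protein, as most genes did. Endogenous replicate 1 had a peak at 4 of the receptors, 7 of the partners and 6 of the targets, beside 4 of the 8 SMAD genes and 26.3% of all protein-coding genes. Replicate 2 had a peak at 2 of the partners and at 0 of the receptors and targets, beside 2.36% of all. The receptors with a replicate 1 peak were TGFBR1 and TGFBR2, the receptors of TGF-β itself, the activin receptor ACVR2A and the BMP receptor BMPR1B. The partners with a peak in both replicates were SKI, a corepressor of SMADs, and SMURF2, a ubiquitin ligase that acts on SMADs and receptors. Among the targets, ID1, an inhibitor of differentiation induced by BMP, had 4 replicate 1 peaks, and among the partners FOXH1 had 6. A replicate 1 summit was within 1 kb of a TSS at 1 of 11 receptors, 1 of 12 partners and 0 of 10 targets. The same held at 2 of 8 SMAD genes and 3.38% of all protein-coding genes. Whether another gene had a nearer TSS is not given for the peaks of these pathway genes. A HoxC5 summit was within 1 kb of a TSS at 8 of 11 receptors, 11 of 12 partners and 10 of 10 targets, and at 5 of 8 SMAD genes, beside 54.9% of all. For Pbx4 it was 7 of 11 receptors, 7 of 12 partners, 7 of 10 targets and 5 of 8 SMAD genes, beside 41.9% of all. The median density of Pbx4 peaks was 4.34 per 100 kb at the receptors, 5.86 at the partners, 11.7 at the targets and 5.85 at the SMAD genes, beside 6.04 over all protein-coding genes. For HoxC5 these medians were 2.69, 4.08, 5.91 and 4.15 per 100 kb, beside 3.28. TGFBR2 was the densest of the receptors for both proteins, with 8.74 HoxC5 and 15.7 Pbx4 peaks per 100 kb, close to SMAD3. The partner TGIF1 was denser than SMAD3 in both lists, with 9.84 HoxC5 and 17.2 Pbx4 peaks per 100 kb. The pathway genes named here were picked after their counts were seen.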

How the data were processed

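Peak lists of the 4 ChIP libraries were analysed. Per the methods, reads were aligned by the authors with BWA-MEM (hg19), low-quality alignments and duplicates were discarded, and MACS2 was run on each library to give 1 deposited list per library. The MACS2 version and the control of each call are not given in the sources used here. Each deposited peak carries the caller's fold, which is the ratio of its signal to local background. The deposited significance columns are −log10 of the p-value and of the q-value, and the deposited score is the caller's integer form of q. Start, end and summit positions were used as deposited. The lists ended at different limits (the highest q was 0.00997 for overexpressed HoxC5 and 0.0490 for Pbx4), and so peak numbers were not compared between lists. The split of sites by protein is a count of called peaks under these limits. Average depth is stated in the methods only as a range, and read totals per library are not in these lists, so the precision of single peaks could not be computed.

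Summits were assigned with the protein-coding genes of GENCODE 44 lifted to GRCh37, on chromosomes 1 to 22, X and Y, using each annotated transcript start. Libraries were grouped by their labels. Peaks were taken as shared at an overlap of at least 1 bp. Words were sought in the GRCh37 sequence. The genes, the lists and the words were chosen with earlier results of these data known. Named were each endogenous peak and, per gene and overexpressed list, the peak nearest a TSS and that of highest fold. Other peaks named, and the receptor-regulated class without SMAD3, were chosen after their values were seen. The interval code was tested on simulated data. Python 3.11.15, pandas 2.3.3, scipy 1.17.1, pysam 0.24.0 and samtools 1.23.1 were used.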

Additional observations from a re-analysis of the deposited data

How the results depend on the processing

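Windows of 50 and 200 kb, the 5′ end of each gene only, filters at a fold or −log10 q of at least 5, assignment by nearest TSS, stricter overlap and each endogenous replicate left out were tried. With a window of 200 kb the 8 genes had 135 overexpressed HoxC5 and 256 Pbx4 peaks. With a −log10 q of at least 5, endogenous replicate 1 had 0 peaks at the SMAD genes and 0 genes had an endogenous peak. With a reciprocal overlap of 50% of each peak, the shared portion was 34.8% of the HoxC5 and 19.5% of the Pbx4 peaks. The genes with an endogenous peak were 0 without endogenous replicate 1 and 4 without replicate 2. The endogenous peaks at these genes thus came from replicate 1 alone, and each had a −log10 q below 5. Of 96 peak counts of single genes under the alternatives, 63 were within 1.5 times the reported count, 24 were lower and 9 higher. No test was made, and so no pairing of libraries was used. The inputs that the labels match to the ChIP libraries were not analysed here. A peak near the limit of 100 kb, or nearer to another gene, is assigned by distance alone, and expression of the SMAD genes was not measured in these libraries.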
